A study of Mus musculus with 24 samples.

Results

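The 200 most abundant autosomal antisense transcripts of mouse spermatogenic cells are described here together with the genes they overlap on the opposite strand. They were chosen by their measured level. All 2913 genes of the biotype antisense on chromosomes 1 to 19 of GENCODE release M21 were ranked by mean CPM, the count scaled to the total of the library, over the 7 wild-type libraries used, and the first 200 were kept. Because the wild-type levels chose them, their wild-type levels are given as a description and carry no test. The last members inside the rank limit were 4933416M07Rik at 11.4 CPM, Ccdc42os at 11.3 and 4930511M06Rik at 11.3, and the first genes outside it were 1700080N15Rik at 11.2, Gm14285 at 11.2 and Gm26555 at 11.1.

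Poly(A) RNA was sequenced from 2 germ cell fractions of adult mice, pachytene/diplotene spermatocytes and round spermatids, both enriched by sedimentation through a BSA gradient. The males carried 2, 1 or 0 intact copies (Ago413+/+ wild-type, Ago413+/- heterozygous and Ago413-/- null mice) of a stretch on chromosome 4 whose constitutive deletion takes all of Ago1 and parts of Ago3 and Ago4, genes of the Argonaute proteins that bind small RNAs. Every mouse was 10 to 15 weeks old on a C57BL/6J background, to which the line, first made in the 129 strain, had been backcrossed. A preparation drew on the testes of 2 to 5 mice and only fractions above 70% purity by microscopy were pooled, so each library stands for a pool of animals. After 3 libraries named as outliers in the labels were left out, 21 remained. Spermatocytes had 4 wild-type and 3 libraries of each of the other genotypes, and round spermatids had 3 wild-type and 4 of each of the others. Their totals ran from 12825105 to 29749058 counts.

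An antisense transcript is read from the strand opposite to another gene and shares part of that gene's span. Some start at the same CpG-rich promoter as the sense gene and run away from it, some meet the sense gene at the 3′ ends, and some lie within an intron of it. Antisense RNAs of a few loci are known to silence or to assist their sense gene, while for most no function is known. Spermatocytes and round spermatids are known for transcribing an unusually large part of the genome, long noncoding RNAs among it. Round spermatids are the haploid cells that follow the meiotic divisions and that later replace histones by transition proteins and protamines.

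Ago1 was at 0 in all 7 libraries labelled null and between 1.71 and 4.57 CPM in the other 14, where the heterozygous and wild-type ranges overlapped. Ago3, partly deleted, was at 5.28 to 12.1 CPM in wild-type, 12.4 to 47.2 in heterozygous and 43.1 to 91.7 in null spermatocytes, and at 3.56 to 5.87, 14.4 to 26.9 and 14.1 to 44.9 CPM in round spermatids, so in both fractions each heterozygous and null library was above the wild-type ones. The 10 round spermatid markers summed to 1283 to 2006 CPM in wild-type spermatocytes, 1931 to 3133 in heterozygous and 2076 to 2599 in null spermatocytes, against 1899 to 2439 in wild-type and 2356 to 2708 in null round spermatids. The 10 spermatocyte markers summed to 1583 to 2531 CPM in wild-type and 1326 to 1629 in null spermatocytes, against 855.1 to 1291 over the round spermatid groups. Round spermatid markers were thus detected in every spermatocyte library, and the wild-type spermatocyte libraries held less of them than the null ones. The 6 markers of elongating spermatids, the next stage, summed to 4070 to 14795 CPM in spermatocytes and 17729 to 41155 in round spermatids. As a fold within a group, they differed most among the null spermatocyte libraries, at 14795, 7542 and 4465 CPM. Every gene of these 3 lists was detected. Of the other cell types, 9 Sertoli markers summed to 77.7 to 473.3 CPM, 8 spermatogonial ones to 42.4 to 106.1, 7 macrophage ones to 3.32 to 21.5 and 6 Leydig ones to 3.03 to 26.8. The macrophage markers, each detected, summed to 9.71 to 14.1 CPM in wild-type and 16.3 to 19.9 in null round spermatids, without overlap, and to 3.32 to 5.41 and 5.25 to 12.9 CPM in wild-type and null spermatocytes. The 4 peritubular myoid markers summed to 2.92 to 8.75 CPM and the 4 erythrocyte ones to 0 to 2.43. In such mixtures a smaller number of cells of one type and less RNA per cell cannot be told apart.

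The 200 transcripts were a small but concentrated part of the RNA. They held 76.8% of all autosomal antisense counts in the wild type and 0.809% ± 0.071 (SD, n = 4) of all counts in wild-type spermatocytes, against 0.883% ± 0.024 (SD, n = 3) in wild-type round spermatids. Their mean wild-type level ran from 11.3 to 425 CPM with a median of 22.8, and 16 of them exceeded 100 CPM. Exons covered 220 to 9734 bases with a median of 1216, against 922 for all autosomal antisense genes. An overlapping gene on the opposite strand, the sense partner, was found for 186 of the 200, protein-coding for 183, and 14 had none. The partners numbered 185 because Kcnmb4 faced both Kcnmb4os1 and Kcnmb4os2.

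By position, 88 members lay inside the span of the partner (44.0% of members against 54.4% of all autosomal antisense genes), 56 ran head to head with it (28.0% against 21.6%), 32 met it tail to tail (16% against 14.2%) and 10 contained it. Exons of both genes overlapped for 138, and 48 pairs overlapped in span without a shared exonic base. Of the head to head members, 38 started within 1000 bases of the partner's start. RefSeq promoter windows (GRCm38.p6, 250 bases before to 50 bases after a gene's start) were matched by symbol for 113 of the 200 members and 145 of the 186 members' partners. The windows of 3 such sense genes are shown because they hold the starts of both strands.
Tdrd5 promoter: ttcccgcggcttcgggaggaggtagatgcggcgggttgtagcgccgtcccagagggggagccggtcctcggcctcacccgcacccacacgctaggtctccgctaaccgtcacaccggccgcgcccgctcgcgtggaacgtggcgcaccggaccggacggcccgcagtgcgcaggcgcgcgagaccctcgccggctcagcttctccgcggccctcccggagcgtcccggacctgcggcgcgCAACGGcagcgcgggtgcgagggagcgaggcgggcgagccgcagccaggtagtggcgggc
Trafd1 promoter: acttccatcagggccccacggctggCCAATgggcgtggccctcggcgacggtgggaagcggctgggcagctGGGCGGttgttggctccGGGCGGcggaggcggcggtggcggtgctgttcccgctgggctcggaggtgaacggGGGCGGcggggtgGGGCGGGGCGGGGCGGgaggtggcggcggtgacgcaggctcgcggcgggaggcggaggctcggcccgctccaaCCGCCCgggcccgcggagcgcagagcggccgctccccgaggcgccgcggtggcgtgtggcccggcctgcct
Ctdspl promoter: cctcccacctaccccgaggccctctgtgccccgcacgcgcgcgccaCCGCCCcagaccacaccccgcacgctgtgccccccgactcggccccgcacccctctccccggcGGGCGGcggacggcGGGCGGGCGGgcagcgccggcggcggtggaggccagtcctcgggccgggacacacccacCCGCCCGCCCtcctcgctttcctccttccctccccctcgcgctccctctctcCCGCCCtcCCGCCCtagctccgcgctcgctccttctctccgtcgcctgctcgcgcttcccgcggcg

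The windows are written 5′ to 3′ on the strand of the sense gene, with its start at base 251, and capitals mark matches on either strand to the GC box GGGCGG, the CCAAT box, the TATA box TATAAA, the MYB core CAACTG or its variant CAACGG, or the cyclic AMP response element TGACGTCA. Overlapping GC boxes run together as 1 stretch of capitals. The Tdrd5 window (chr1:156303299-156303598, minus strand) holds 48 CG dinucleotides and 1 MYB core, and the antisense 4930518J20Rik starts at base 110. The Trafd1 window (chr5:121385360-121385659, minus strand) holds 43 CG, 7 GC boxes and 1 CCAAT, with Gm42918 starting at base 138. At Ctdspl (chr9:118926286-118926585, plus strand) there are 43 CG and 8 GC boxes, and Gm2415 starts at base 170. All 3 windows are dense in CG. In each the antisense start lies upstream of the RefSeq start of the sense gene but downstream of its earlier GENCODE start, by 175, 110 and 2 bases, so the annotated transcripts overlap at their 5′ ends.

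Of the 38 head to head partners with a start within 1000 bases of the member's start, 26 had a RefSeq window, some of them more than 1. Among these windows, which also number 38, 27 (71.1%) held a GC box and the median CG count was 29.5, against 35.7% and 7 over all 32851 windows of the table and 60% and 22 over the 200 windows of partners in the table. A TATA box was in 2 of the 38 (5.26%) against 13.6% of all windows. Over the members' own 132 windows, of 113 members, 36 (27.3%) held a MYB core against 18.1% of all windows, and 2 (1.52%) held the cyclic AMP response element against 1.79%. A match is a description of these letters only.

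Other members start in sequence of another composition. For the 113 members with a window, taking the window richest in CG where a member has several, the median CG count was 7 over all of them, 30 for 16 head to head members with near starts, 4 for 51 members inside the partner and 3.5 for 12 of those higher in round spermatids. Windows of 3 members that were among the highest in round spermatids relative to spermatocytes are shown for contrast, with the member's RefSeq start at base 251.
Itpr3os promoter: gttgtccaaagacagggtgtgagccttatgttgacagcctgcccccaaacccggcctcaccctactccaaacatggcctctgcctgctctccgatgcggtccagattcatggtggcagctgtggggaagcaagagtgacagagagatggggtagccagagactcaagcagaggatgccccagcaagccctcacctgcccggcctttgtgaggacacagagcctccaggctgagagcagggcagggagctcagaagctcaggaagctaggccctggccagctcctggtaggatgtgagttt
Gm4665 promoter: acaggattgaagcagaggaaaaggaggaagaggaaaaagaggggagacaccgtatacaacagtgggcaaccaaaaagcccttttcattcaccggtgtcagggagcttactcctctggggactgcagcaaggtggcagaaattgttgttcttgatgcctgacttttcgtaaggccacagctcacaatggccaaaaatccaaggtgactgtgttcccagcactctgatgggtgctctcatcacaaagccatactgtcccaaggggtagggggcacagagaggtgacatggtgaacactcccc
1700029B22Rik promoter: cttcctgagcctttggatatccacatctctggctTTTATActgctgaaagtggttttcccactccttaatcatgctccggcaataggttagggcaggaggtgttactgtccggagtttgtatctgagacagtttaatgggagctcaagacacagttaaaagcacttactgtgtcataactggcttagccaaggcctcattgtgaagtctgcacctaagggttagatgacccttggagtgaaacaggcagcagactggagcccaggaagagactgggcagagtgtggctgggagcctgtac

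They lie at chr17:27101401-27101700, minus strand, chr9:115186052-115186351, minus strand and chr7:131146189-131146488, plus strand. The Itpr3os window holds 4 CG, that of Gm4665 3 and that of 1700029B22Rik 2, and the only motif among those searched is 1 TATAAA on the opposite strand at base 35 of the 1700029B22Rik window. Over the 13 windows of members called higher in round spermatids in both other genotypes, 3 held a TATA box (23.1%), 2 a GC box (15.4%) and none a MYB core or the cyclic AMP response element.

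**Figure D1:**
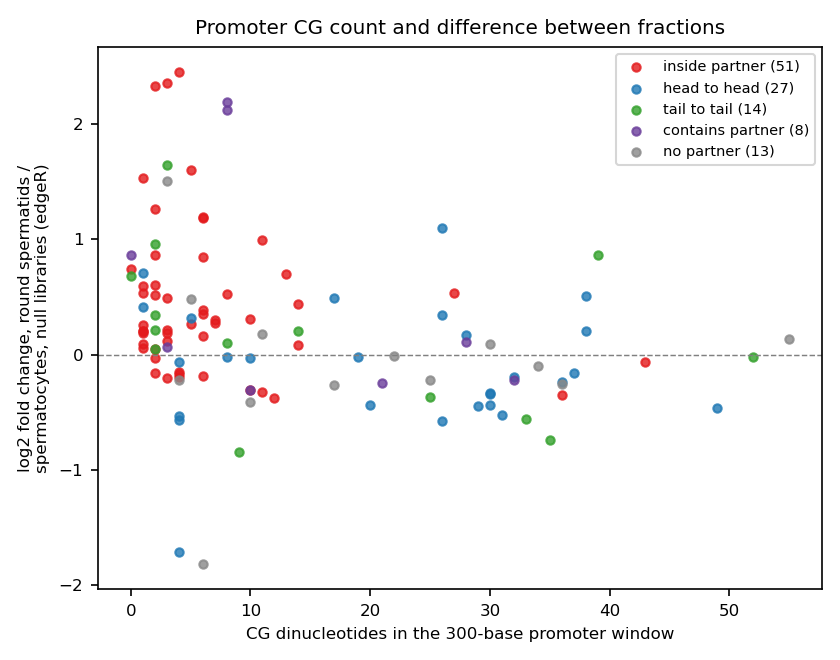
Each point is 1 of the 113 members with a RefSeq promoter window, with the number of CG dinucleotides in the window on the x axis and the log2 fold change of round spermatids over spermatocytes in null libraries on the y axis, coloured by position relative to the partner. The members with the largest positive values have few CG, and most head to head members lie at higher CG counts around 0.

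Levels were compared between a member and its partner per kilobase of exon, as CPM per kilobase. In wild-type spermatocytes 131 of 186 members were above their partner, 77 of them over 10 times, with a median ratio of 5.40. In wild-type round spermatids 142 were above, 80 over 10 times, with a median of 7.23. The order was the same way round in both fractions for most pairs, since 131 members were above in both and 44 below in both. The choice of abundant antisense genes raises these ratios by construction.

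The most abundant member was Gm11837 (ENSMUSG00000086587, chr4:14929908-14953030, plus strand), which meets Necab1, a neuronal calcium-binding protein gene, tail to tail and shares 410 exonic bases with it. Gm11837 was at 457, 482, 467 and 539 CPM in wild-type, 418, 379 and 741 in heterozygous and 439, 422 and 448 in null spermatocytes. In round spermatids it was at 295, 354 and 382 CPM in wild-type, 238, 365, 339 and 294 in heterozygous and 294, 272, 261 and 298 in null round spermatids. Every round spermatid library was below the spermatocyte libraries of its own genotype. Necab1 stayed between 0.683 and 5.46 CPM over the 21 libraries, so per kilobase the antisense gene was 1206.5 times its partner in wild-type spermatocytes and 1511 times in wild-type round spermatids. Fitted differences between fractions were -0.55 ± 0.19 (adjusted p = 0.073) in heterozygous and -0.37 ± 0.19 (adjusted p = 0.181) in null libraries on the log2 scale, given with their SE, and did not pass.

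Hoxd3os1 (ENSMUSG00000052371, chr2:74703248-74716130, minus strand), head to head with the homeobox gene Hoxd3, had a partner that was almost undetected. The antisense gene was at 104, 84.8, 95.8 and 110.3 CPM in wild-type, 88.4, 89.9 and 77.1 in heterozygous and 83.95, 90.4 and 82.8 in null spermatocytes. Round spermatids held 102, 101 and 86.3 CPM in wild-type, 106, 99.4, 99.7 and 104 in heterozygous and 86.7, 93.1, 89.8 and 86.6 in null round spermatids. Round spermatids were above spermatocytes without overlap in heterozygous libraries, by 0.51 ± 0.13 (adjusted p = 0.0172), whereas the null groups overlapped and differed by 0.32 ± 0.13 (adjusted p = 0.0957) on the log2 scale, each given with its SE. The call was lost under 9 of 15 alternatives, and the value ran from 0.42 to 0.58 over all 15, around the limit of 0.5. Hoxd3 was at 0 in all 3 wild-type round spermatid libraries, which allows up to 0.194 CPM, and was at most 0.252 CPM in any library. Other members over a nearly silent partner were 4933432K03Rik opposite Hs3st2, a heparan sulfate sulfotransferase gene, and 1700029B22Rik inside the long annotated span of Fgfr2, a fibroblast growth factor receptor gene.

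Among the 44 pairs with the opposite order were some with an abundant partner. 1700027A15Rik (ENSMUSG00000101968, chr1:72984844-73025507, plus strand) spans Tnp1, the gene of transition protein 1, which replaces histones in spermatids. Of its 1396 exonic bases 40 lie under Tnp1 exons. Per kilobase it was at 0.05 times Tnp1 in wild-type spermatocytes and 0.04 times in wild-type round spermatids. 4930515G01Rik, opposite the ubiquitin-binding Ankrd13a, was at 0.18 and 0.17 times its partner, and 0610040B10Rik, opposite the palmitoyltransferase gene Zdhhc4, at 0.17 and 0.10.

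**Figure D2:**
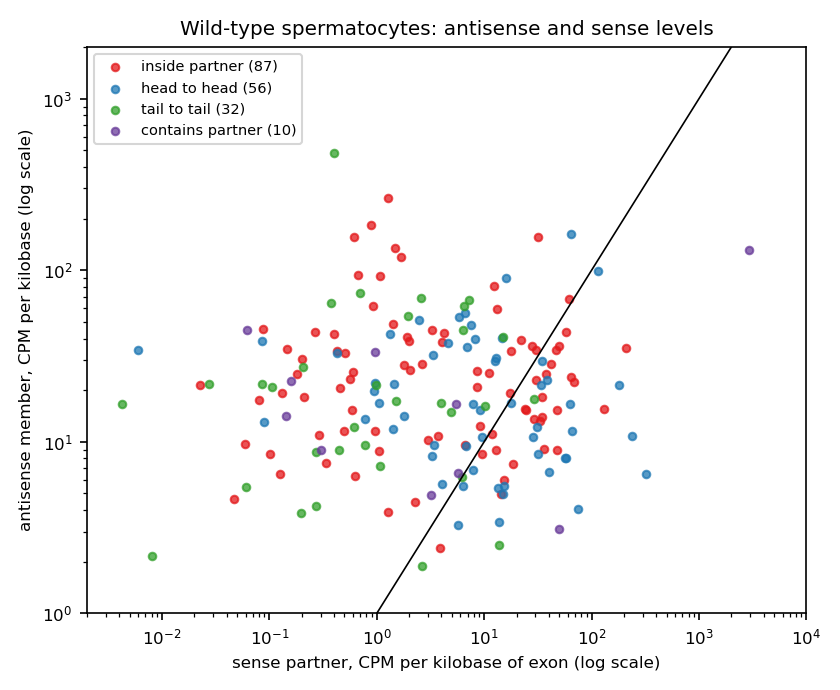
Mean level in wild-type spermatocytes (n = 4 libraries), in CPM per kilobase of exon on log axes, of each antisense member against its sense partner, 1 point a pair for the 185 pairs with a partner above 0 and coloured by relative position. The diagonal marks equal levels, and 131 of 186 members are above it or have a partner at 0.

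Antisense counts depend on strand. Which strand column the deposited counts come from is not stated, so members wholly covered by exons of the opposite strand were examined, since STAR leaves reads over 2 genes uncounted where strand is ignored. Among all 75 autosomal antisense genes of this kind, 16 had 10 or more counts in 3 or more libraries and the median wild-type level was 0.0074 CPM. The members, chosen for abundance, included 3 of them. The most abundant was AI507597 (ENSMUSG00000073731, chr4:141614026-141615604, plus strand), whose 944 exonic bases all lie under exons of Tmem82, a transmembrane protein gene. AI507597 was at 92.7, 98.6, 52.3 and 108 CPM in wild-type, 122, 129 and 82.1 in heterozygous and 143, 97.3 and 72.2 in null spermatocytes. Round spermatid values were higher, at 274, 215 and 229 CPM in wild-type, 342, 197, 186 and 274 in heterozygous and 292, 277, 251 and 219 in null round spermatids. Tmem82 was at 2.34 to 9.90 CPM in the same libraries, below AI507597 in each. The part of reads placed on the wrong strand by the library kit was not tested.

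Differences between the 2 fractions are given for heterozygous and null libraries, which had no part in the choice of members. The fit also held the wild-type libraries, which share its estimate of the spread, and their own difference between fractions is not used since their levels chose the members. With edgeR's quasi-likelihood test, Benjamini-Hochberg adjustment over all genes and calls that need both an adjusted p below 0.05 and a log2 fold change of over 0.5 in size, 29 of the 200 members differed in heterozygous libraries, 26 higher and 3 lower in round spermatids. The background was 8.89% of all 20404 genes tested, 7.07% higher and 1.82% lower. In null libraries 43 members differed, 36 higher and 7 lower, against 17.1% of all genes, 11.7% higher and 5.42% lower. All 200 members passed the filter on low counts. Calls shared by both genotypes with the same sign numbered 27, of which 25 were higher and 2 lower in round spermatids. No member was called in opposite directions. The share of all genes called in both genotypes is not given, so these counts have no background beside them. The median over the 200 members was -0.02 in heterozygous and 0.09 in null libraries, against -0.06 and -0.0015 over all genes. Of the 200 most abundant autosomal lincRNAs, another class of long noncoding RNA ranked in the same wild-type libraries, 26 were called in heterozygous libraries and 50 in null libraries, 18 and 28 of them higher. Marker sums of macrophages, peritubular myoid cells and erythrocytes were also above those of spermatocytes in every round spermatid library of both genotypes. For macrophages they were 10.6 to 21.5 against 5.40 to 8.82 CPM in heterozygous and 16.3 to 19.9 against 5.25 to 12.9 CPM in null libraries. For peritubular myoid cells they were 4.38 to 6.23 against 2.92 to 3.80 and 5.65 to 8.75 against 3.70 to 4.66 CPM. For erythrocytes they were 1.05 to 2.43 against 0 to 0.174 and 0.69 to 1.54 against 0 to 0.0913 CPM. The other lists did not all go this way. Sertoli sums were 87.5 to 362.5 against 77.7 to 473.3 CPM in heterozygous and 189.6 to 374.8 against 92.5 to 165.2 CPM in null libraries. Leydig sums were 3.31 to 6.37 against 6.15 to 26.8 and 3.88 to 9.18 against 4.85 to 7.83 CPM. Spermatogonial sums overlapped in both genotypes. The part of any of these cells in the differences between fractions was not tested.

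The count in heterozygous libraries moved with the choice of libraries. With the 3 outlier libraries added back no member was called there (0 of all 20542 genes, 53 members at an unadjusted p under 0.05). In null libraries 36 remained called, all among the 43, with 11.1% of all genes called. Without null spermatocyte replicate 3 the count in null libraries was 25, with 6.15% of all genes called. Without heterozygous round spermatid replicate 1 or replicate 4 the counts in heterozygous libraries were 16 and 18, each with 4.72% of all genes called.

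The members higher in round spermatids included 3 of the 10 most abundant. 1700027A15Rik, over Tnp1, was at 239, 212, 93.9 and 189.6 CPM in wild-type, 249, 263 and 224 in heterozygous and 371, 144 and 85.2 in null spermatocytes. In the later cells it was at 683, 477 and 559 CPM in wild-type, 942, 409.9, 409.5 and 613 in heterozygous and 1111, 728, 563 and 541 in null round spermatids. The groups did not overlap within heterozygous or null libraries, and the differences were 1.55 ± 0.43 (adjusted p = 0.025) and 2.19 ± 0.44 (adjusted p = 0.00191) on the log2 scale. The call in heterozygous libraries was lost under 6 of 15 alternatives. Tnp1 itself rose by 1.82 ± 0.38 (adjusted p = 0.00382) and 2.09 ± 0.38 (adjusted p = 0.00113), from 633.4 to 2515 CPM over the spermatocyte libraries to 2414 to 6956 CPM over the round spermatid libraries. The summed elongating spermatid markers, Tnp1 among them, were also higher in every round spermatid library than in any spermatocyte library, and their part in these differences was not tested. Nor was the part of Tnp1 reads in the counts of 1700027A15Rik tested.

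Wbscr25 (ENSMUSG00000054909, chr5:134987433-135001350, minus strand) meets Cldn3, the gene of a tight junction claudin, tail to tail. Wbscr25 was at 178, 170.2, 80.2 and 153 CPM in wild-type, 193, 213 and 126 in heterozygous and 266, 159 and 104 in null spermatocytes. It was higher in the other fraction, at 640.1, 411 and 357 CPM in wild-type, 685, 359.7, 358 and 512 in heterozygous and 596, 628, 512 and 401 in null round spermatids, with no overlap of the fractions in any genotype. The differences were 1.72 ± 0.35 (adjusted p = 0.0035) and 1.88 ± 0.35 (adjusted p = 0.00121). Cldn3 was at 1.19 to 4.91 CPM in all libraries, with fitted differences of 0.06 ± 0.35 (adjusted p = 0.949) and 0.72 ± 0.36 (adjusted p = 0.174). AI507597, whose values stand above, differed by 1.45 ± 0.29 (adjusted p = 0.00298) and 1.60 ± 0.29 (adjusted p = 0.00109), and its partner Tmem82 by -0.07 ± 0.31 and 0.14 ± 0.31, neither called.

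By the mean over heterozygous and null libraries, the largest differences were at intragenic members, 3 of which have promoter windows shown above. Itpr3os (ENSMUSG00000086898, chr17:27099658-27101440, minus strand) lies inside Itpr3, which encodes an inositol trisphosphate receptor that releases calcium. It was at 35.9, 32.7, 11.9 and 26.3 CPM in wild-type, 37.9, 49.7 and 11.7 in heterozygous and 41.1, 19.4 and 8.13 in null spermatocytes. Round spermatid libraries ranged higher, at 160.1, 92.6 and 79.6 CPM in wild-type, 189, 83.9, 81.1 and 116 in heterozygous and 101, 125, 105 and 77.5 in null round spermatids. The spermatocyte values varied several-fold within each genotype, and every round spermatid library was above all of them. The differences were 2.14 ± 0.50 (adjusted p = 0.00876) and 2.45 ± 0.51 (adjusted p = 0.00238), whereas Itpr3, at 3.51 to 14.1 CPM, differed by 0.58 ± 0.23 (adjusted p = 0.112) and 0.46 ± 0.22 (adjusted p = 0.159). The heterozygous call of Itpr3os was lost without spermatocyte replicate 3 (1.74) and with the outlier libraries added back (1.93).

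Gm4665 (ENSMUSG00000098127, chr9:115180404-115186058, minus strand) lies in an intron of Osbpl10, an oxysterol-binding protein-like gene. Its levels were 9.59, 9.67, 4.62 and 10.7 CPM in wild-type, 9.36, 7.26 and 4.601 in heterozygous and 16.1, 7.604 and 3.47 in null spermatocytes. They were 28.1, 26.3 and 29.1 CPM in wild-type, 31.7, 18.5, 16.4 and 37.6 in heterozygous and 47.7, 39.3, 34.03 and 29.5 in null round spermatids. Every round spermatid library was above every spermatocyte library, by 2.16 ± 0.42 (adjusted p = 0.00284) and 2.35 ± 0.42 (adjusted p = 0.00109). For 1700029B22Rik (ENSMUSG00000100759, chr7:131146439-131150580, plus strand) the spermatocyte libraries lay between 6.74 and 23.6 CPM and the round spermatid libraries between 28.1 and 70.4. The differences were 1.97 ± 0.43 (adjusted p = 0.0052) and 2.33 ± 0.43 (adjusted p = 0.00121), and Fgfr2 counts were too low to be tested. Close to these were Gm12970 inside the syndecan gene Sdc3, 1700008B11Rik inside Sh2b3, an adaptor of cytokine signalling, 1700125H03Rik inside Csgalnact1, an enzyme of chondroitin sulfate synthesis, and Gm16279, which contains the tubulin acetyltransferase gene Atat1. These 4 were higher by 1.70 to 1.93 in heterozygous and by 2.12 to 2.36 in null libraries.

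Only 2 members were called lower in round spermatids in both genotypes. By CPM, 13 members had all round spermatid libraries below all spermatocyte libraries in each of the 3 genotypes, and 28 had them above. Gm14244 (-1.39 in heterozygous and -1.82 in null libraries) and Gm21284 (-1.07 and -1.71) had lower fitted values than the 2 but were not called in both. Gm43352 (ENSMUSG00000106086, chr3:131109026-131112090, minus strand) runs head to head with Lef1, a transcription factor gene of the Wnt pathway. It was at 123, 132, 104 and 80.4 CPM in wild-type, 60.7, 66.4 and 62.5 in heterozygous and 35.9, 73.99 and 52.6 in null spermatocytes. In round spermatids the values were 56.8, 34.96 and 52.7 CPM in wild-type, 25.1, 46.6, 32.9 and 22.1 in heterozygous and 20.7, 19.96, 32.4 and 36.7 in null round spermatids. The fractions did not overlap in heterozygous libraries and did in null libraries, where the highest round spermatid value, 36.7 CPM, was above the lowest spermatocyte value, 35.9 CPM. The differences were -0.80 ± 0.25 (adjusted p = 0.045) and -0.75 ± 0.25 (adjusted p = 0.0383), calls that were lost under 10 and 9 of 15 alternatives, the null value being -0.43 without spermatocyte replicate 2. 1700026D11Rik, head to head with the lincRNA gene Gm14095, differed by -0.67 ± 0.16 (adjusted p = 0.00854) and -0.57 ± 0.16 (adjusted p = 0.0154), with each round spermatid library (21.2 to 38.8 CPM) below the spermatocyte libraries of its genotype (37.1 to 69.9 CPM over all). These calls were each lost under 3 of 15 alternatives, and the heterozygous value was -0.45 without spermatocyte replicate 3.

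**Figure D3:**
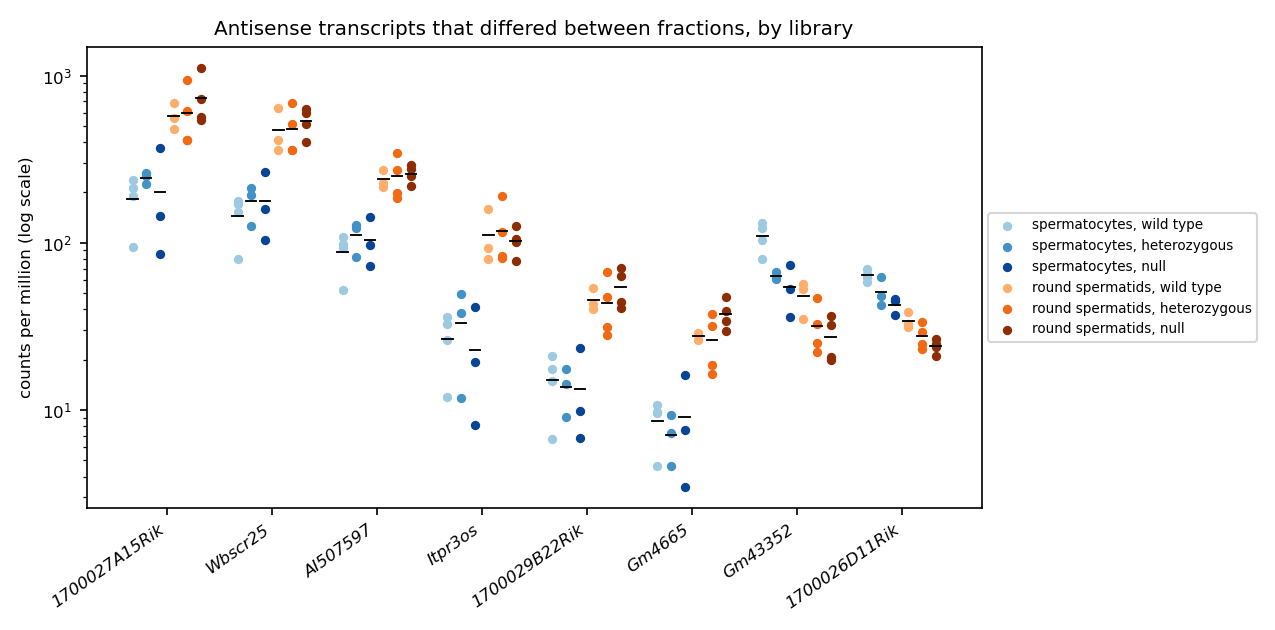
CPM in every library (points, log axis; bars are group means) of 8 antisense members in the 6 groups, spermatocytes in blue and round spermatids in orange. The first 6 members are higher and the last 2 lower in round spermatids, and the wild-type points are a description since wild-type levels chose the members.

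Calls between fractions are given by position as counts, with no test. In null libraries 21 of 88 members inside the partner, 7 of 32 tail to tail and 4 of 56 head to head were called higher in round spermatids, and in heterozygous libraries 13, 6 and 4, beside 11.7% and 7.07% of all genes called higher. Medians for members inside the partner, tail to tail and head to head were 0.26, 0.06 and -0.03 in null and 0.11, -0.13 and -0.10 in heterozygous libraries. Of 176 pairs tested on both sides in null libraries, 9 were called in the same direction, 31 for the member alone, 30 for the partner alone and none in opposite directions. In heterozygous libraries the counts were 4, 21, 14 and 0. Over all 972 autosomal antisense pairs tested, the same counts were 32, 142, 149 and 4 in null and 14, 89, 95 and 1 in heterozygous libraries. Across the 176 pairs the log2 fold changes of member and partner gave Pearson's r = 0.28 in null and 0.34 in heterozygous libraries, a description over genes that share the same libraries. Of the 175 partners tested, 26 were called higher and 13 lower in null libraries, and 15 and 3 in heterozygous libraries, so 22.3% and 10.3% were called beside 17.1% and 8.89% of all genes. Among the 134 tested genes of a list of 138 meiotic and spermatid genes, 29 were called higher and 12 lower in null libraries, and 28 and 1 in heterozygous ones, beside 11.7% and 5.42%, and 7.07% and 1.82%, of all genes.

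Null against wild-type cells asks what the loss of the 3 Argonaute genes does to these transcripts. No member passed in spermatocytes, where 8 of 19450 genes (0.0411%) did, and none in round spermatids, where 10 of 19310 (0.0518%) did. At an unadjusted p under 0.05 edgeR gave 64 members in spermatocytes, 40 higher and 24 lower in the null, and 69 in round spermatids, 27 higher and 42 lower, against 30.4% and 19.3% of all genes. With 0.0599 for spermatocytes and 0.0653 for round spermatids, the smallest adjusted p of a member stayed above the threshold. Since the wild-type libraries also chose the members, these differences are not independent of the choice. The macrophage markers were higher in null than in wild-type round spermatids, as given above, and their part in these differences was not tested. The median log2 fold change was -0.02 in both fractions, against 0.21 and 0.11 for the other autosomal antisense genes tested and -0.03 and 0.03 for all genes.

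The count of 0 in spermatocytes changed with 1 library and with the tool. Without wild-type replicate 5, edgeR called 54 members, 44 higher and 10 lower in the null, and 23.6% of all genes. That library had the highest sum of round spermatid markers of its group, 2006 CPM against 1283 to 1417 in the other 3, and its part in the difference was not tested. DESeq2 called 25 members in spermatocytes, 18 higher and 7 lower, against 15.2% of all genes, and 16 in round spermatids, 3 higher and 13 lower, against 3.62% of all genes.

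Where groups did not overlap, 26 members had every null spermatocyte library above every wild-type one and 42 below, against 13.7% and 14.1% of all genes. In round spermatids 26 were above and 40 below, against 7.71% and 13.2%. Across the 200 members the null effects in spermatocytes and in round spermatids had the same sign for 175, 85 higher in both and 90 lower in both, with Pearson's r = 0.87. Over 18658 genes the sign was shared by 76.0% with r = 0.59. These are descriptions across genes. The 2 fits use separate libraries, whose cells may come from the same mice, and wild-type levels in both fractions chose the members. The test of the difference of the null effect between fractions called no member and 0 of 20404 genes (0%) with edgeR. At an unadjusted p under 0.05 edgeR gave 1 member, against 5.95% of all genes. DESeq2 called no member either.

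The null effect is given by position relative to the partner, without a test. In spermatocytes 43 of 56 head to head members had a negative log2 fold change, with a median of -0.29, and 59 of 88 members inside the partner a positive one, with a median of 0.35. In round spermatids 40 of 56 head to head members were negative (median -0.24) and 60 of 88 inside members positive (median 0.18). Tail to tail members had medians of -0.08 and -0.03. The 14 members without a partner had medians of -0.39 and -0.26, with 9 of 14 negative in each fraction. Autosomal antisense genes that are no members gave 0.39 and 0.21 for 392 and 397 genes inside the partner and -0.01 and -0.04 for 212 and 213 head to head ones. The sign of both medians was kept under each of the 14 alternatives in either fraction, from -0.36 to -0.18 for head to head members and from 0.09 to 0.50 for inside ones. In the null spermatocytes the round spermatid markers were higher than in the wild type, as given above, and their part in this split was not tested.

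**Figure D4:**
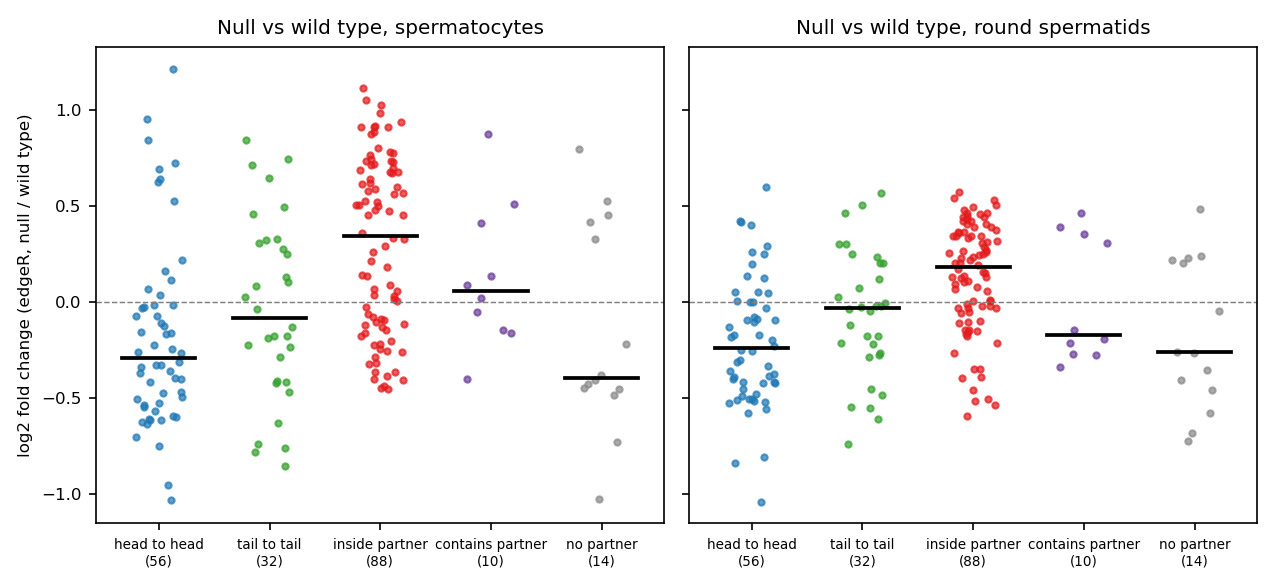
Log2 fold change of null over wild type (edgeR) of each of the 200 members, spermatocytes on the left and round spermatids on the right, grouped by position relative to the partner with the number of members in brackets. Black bars are medians, which lie below 0 for head to head members (-0.29 and -0.24) and above 0 for members inside the partner (0.35 and 0.18).

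The members furthest from wild type by unadjusted p, among those whose groups did not overlap, are given as values, since none passed. Gm42609 (ENSMUSG00000105975, chr3:55377457-55403122, minus strand) lies inside Dclk1, a microtubule-associated kinase gene. It was at 54.3, 65.9, 66.8 and 99.7 CPM in wild-type, 127, 122 and 97.5 in heterozygous and 154, 120.1 and 138 in null spermatocytes. It was at 69.8, 108 and 98.3 CPM in wild-type, 126, 112, 139 and 155 in heterozygous and 114, 121, 142 and 151 in null round spermatids. Null libraries were above all wild-type ones in both fractions, by 0.91 ± 0.20 (adjusted p = 0.0599) and 0.54 ± 0.16 (adjusted p = 0.11). Dclk1 differed by 0.70 ± 0.32 (adjusted p = 0.165) in spermatocytes, where the groups overlapped, at 2.44 to 4.404 CPM in wild-type and 3.80, 4.11 and 8.10 in null libraries. Wild-type replicate 5, the highest of its group at 99.7 CPM, came within the heterozygous range of 97.5 to 127 CPM.

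A930024E05Rik (ENSMUSG00000056735, chr5:122989354-122998345, plus strand), head to head with the histone demethylase gene Kdm2b, had the largest of these values. It was at 8.92, 10.6, 11.3 and 21.2 CPM in wild-type, 20.7, 21.5 and 22.6 in heterozygous and 33.6, 22.01 and 37.3 in null spermatocytes. Round spermatid levels were 7.79, 14.8 and 13.6 CPM in wild-type, 17.03, 14, 16.9 and 13.9 in heterozygous and 16.2, 16.4, 16.03 and 23.4 in null round spermatids. The difference was 1.22 ± 0.29 (adjusted p = 0.0599) in spermatocytes against 0.60 ± 0.21 (adjusted p = 0.148) in the later cells, with no overlap of null and wild type in either. The value in round spermatids was 0.38 without wild-type replicate 1, the lowest library, and 0.20 with the outlier libraries added back. Kdm2b differed by -0.24 ± 0.24 and -0.36 ± 0.13. Gm16982, inside the clathrin adaptor gene Ap2a2, was at 11.2, 9.75, 10.9 and 20.1 CPM in wild-type and 29.8, 23.7 and 32.9 in null spermatocytes, a difference of 1.12 ± 0.26 (adjusted p = 0.0599), and Ap2a2 differed by 0.57 ± 0.15 (adjusted p = 0.0599).

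Of those below wild type, Gm43352, whose values are given above, differed by -1.03 ± 0.25 (adjusted p = 0.0599) in spermatocytes, where the groups did not overlap, and by -0.81 ± 0.24 (adjusted p = 0.107) in round spermatids, where they did. Its partner Lef1 differed by -0.72 ± 0.23 (adjusted p = 0.0741) and -0.44 ± 0.24 (adjusted p = 0.328). AC165962.1 (ENSMUSG00000117725, chr17:30576300-30582594, plus strand), head to head with the BTB domain gene Btbd9, was at 298, 284, 262 and 232 CPM in wild-type, 151, 159 and 148 in heterozygous and 115, 205 and 166 in null spermatocytes. The difference from wild type was -0.75 ± 0.19 (adjusted p = 0.0599) for the null, and the heterozygous libraries were also below every wild-type one. Btbd9 stayed between 21.3 and 34.5 CPM in all 21 libraries.

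1700018L02Rik (ENSMUSG00000100075, chr19:29046245-29048729, plus strand), head to head with the mitochondrial adenylate kinase gene Ak3, was at 140.1, 126, 126 and 139 CPM in wild-type, 112, 119 and 123 in heterozygous and 76.7, 99.2 and 97.2 in null spermatocytes. Its round spermatid levels were 98.3, 88.4 and 89.4 CPM in wild-type, 76.6, 107, 102 and 77.8 in heterozygous and 45.2, 58.8, 70.1 and 70.2 in null round spermatids. Null libraries were below all wild-type ones in both fractions, by -0.57 ± 0.16 (adjusted p = 0.0626) and -0.58 ± 0.14 (adjusted p = 0.0788), while its partner Ak3 differed by -0.20 ± 0.19 and 0.01 ± 0.20. 4930515G01Rik, opposite Ankrd13a, had the smallest adjusted p of a member in round spermatids, 0.0653. It was at 10.8, 9.95 and 10.5 CPM in wild-type, 5.48, 8.91, 6.84 and 6.57 in heterozygous and 5.65, 6.03, 5.68 and 5.61 in null round spermatids, a difference of -0.84 ± 0.16, with heterozygous libraries also below every wild-type one.

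**Figure D5:**
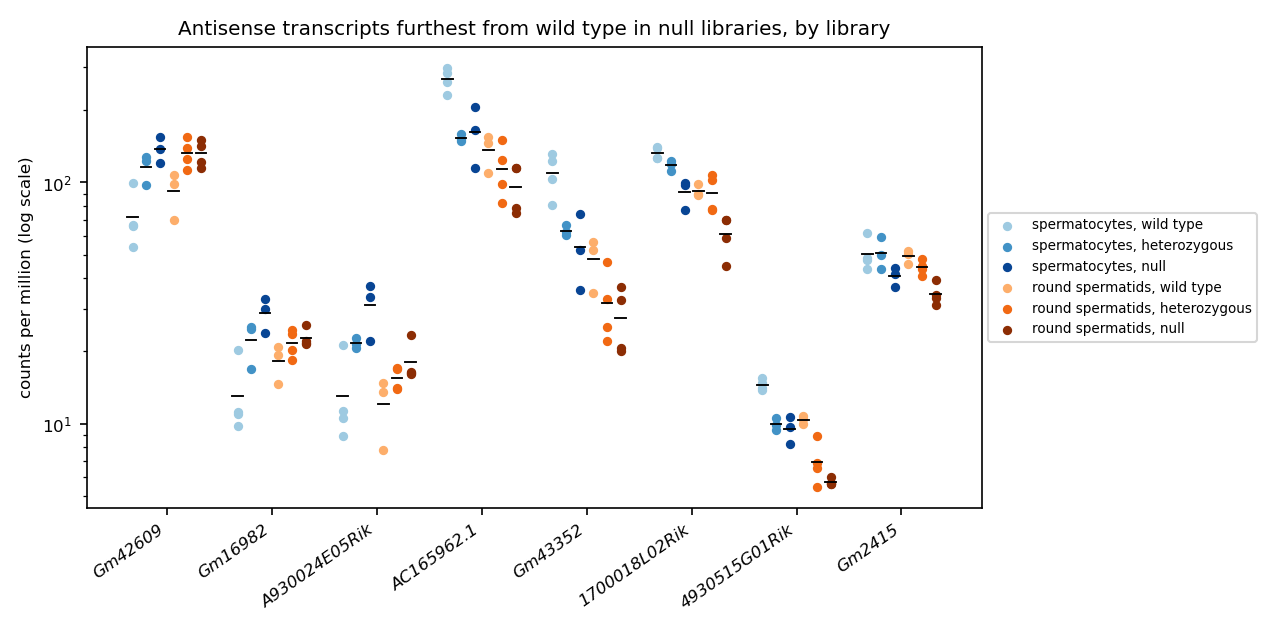
CPM in every library (points, log axis; bars are group means) of 8 of the antisense members furthest from wild type in null libraries by unadjusted p, with the 3 genotypes in darkening blue for spermatocytes and darkening orange for round spermatids. No member passed the adjusted threshold, and the heterozygous points often lie with the null ones.

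The pairs that share a CpG-rich start were followed on both strands. 4930518J20Rik, opposite Tdrd5, the gene of a tudor domain protein needed for transposon silencing in spermatogenesis, was at 124, 156, 117 and 134 CPM in wild-type, 110.4, 103 and 212 in heterozygous and 96.3, 99.8 and 107 in null spermatocytes. In round spermatids it was at 107, 102 and 124 CPM in wild-type, 95.97, 95.3, 99.9 and 94.9 in heterozygous and 77.2, 79.8, 83.1 and 88.9 in null round spermatids. Null libraries were below wild-type ones in both fractions, by -0.42 ± 0.26 (adjusted p = 0.279) and -0.41 ± 0.11 (adjusted p = 0.0884). Tdrd5 was at 142, 89.4, 166 and 49.4 CPM in wild-type spermatocytes and at 36.7, 22.7 and 28.4 in wild-type round spermatids, with a fitted null difference of -1.23 ± 0.46 (adjusted p = 0.103) in spermatocytes.

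Gm42918 (ENSMUSG00000106209, chr5:121385522-121387101, plus strand) and Trafd1, a feedback regulator of innate immune signalling, were not called in any comparison. Gm42918 was at 110 to 172 CPM over the 21 libraries. Its partner Trafd1 was at 469.5 to 533 CPM in wild-type, 390.7 to 464 in heterozygous and 366.4 to 472.8 in null spermatocytes. Round spermatid values of Trafd1 were 452, 441 and 423 CPM in wild-type, 314, 425, 405 and 308 in heterozygous and 299.5, 321, 331 and 327 in null libraries. There each null library was below the wild-type ones, by -0.44 ± 0.11 (adjusted p = 0.0845), while Gm42918 differed by -0.17 ± 0.11 (adjusted p = 0.382) with overlap. Gm2415 (ENSMUSG00000086119, chr9:118890075-118926455, minus strand), whose start lies 2 bases from that of the phosphatase gene Ctdspl, was at 52.2, 50.4 and 45.9 CPM in wild-type, 40.8, 45, 48.2 and 43.9 in heterozygous and 31.01, 34.1, 33.3 and 39.2 in null round spermatids. The difference of null from wild type was -0.51 ± 0.11 (adjusted p = 0.0774) there, and Ctdspl differed by 0.36 ± 0.37 (adjusted p = 0.614). Ctdspl was called higher in round spermatids in null libraries, by 1.28 ± 0.41 (adjusted p = 0.0324), where Gm2415 differed by 0.01 ± 0.15 (adjusted p = 0.986).

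The only partner that passed between null and wild type was Ovol2, a zinc-finger transcription factor gene, in round spermatids. Ovol2 was at 94.7, 88.5 and 98.8 CPM in wild-type, 64.8, 85.7, 74.8 and 61.9 in heterozygous and 57.9, 57.6, 59.7 and 63.98 in null round spermatids, a difference of -0.63 ± 0.11 (adjusted p = 0.0472), and every heterozygous and null library was below the wild-type ones. The antisense 1700108N11Rik (ENSMUSG00000084837, chr2:144331459-144332639, plus strand), which starts 687 bases from it, was at 122, 125 and 116 CPM in wild-type, 100.1, 119, 116 and 109 in heterozygous and 107, 100.3, 101 and 99.3 in null round spermatids, with a difference of -0.23 ± 0.10 (adjusted p = 0.226). Over the head to head pairs, member and partner had null effects of the same sign in 46 of 55 in spermatocytes and 35 of 55 in round spermatids, with Pearson's r = 0.54 and 0.30 across pairs. For members inside the partner the counts were 54 of 83 and 55 of 84, with r = 0.28 and 0.16, and for tail to tail pairs 14 of 27 in both, with r = -0.02 and 0.34. All autosomal antisense head to head pairs gave 187 of 251 and 169 of 254, with r = 0.56 and 0.41. These are descriptions across pairs that share the libraries.

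Of the members, 4 faced a gene of the list of meiotic and spermatid genes. Besides 1700027A15Rik and 4930518J20Rik these were 1700065D16Rik, head to head with the checkpoint kinase gene Atr, and AC165951.2, inside the axonemal dynein gene Dnah8. 1700065D16Rik had means of 15.6 ± 1.61 (SD, n = 4) CPM for wild-type and 11.01 ± 0.762 (SD, n = 3) for null spermatocytes. AC165951.2 had 11.5 ± 3.91 (SD, n = 4) and 20.3 ± 3.25 (SD, n = 3). The fitted differences, -0.53 ± 0.23 (adjusted p = 0.144) and 0.78 ± 0.28 (adjusted p = 0.0918), did not pass, nor did those of Atr (-0.74 ± 0.32) and Dnah8 (-0.33 ± 0.37).

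Heterozygous libraries were set against wild type and null. No member passed between heterozygous and wild-type spermatocytes with edgeR (0.0257% of all genes did) and 65 were at an unadjusted p under 0.05, 48 of them higher, against 24.6% of all genes. DESeq2 called 11 members and 6.16% of all genes. The 8 spermatogonial markers summed to 69.2 to 106.1 CPM in heterozygous and 42.4 to 52.8 in wild-type spermatocytes, without overlap, and the round spermatid markers to 1931 to 3133 against 1283 to 2006 CPM, and their part in these differences was not tested. Every heterozygous library was above every wild-type one for 7 members and below for 22, against 7.91% and 9.13% of all genes. Without wild-type replicate 5 edgeR called 51 members there, 48 higher, and 15.5% of all genes. In round spermatids no member passed either (0.0207% of all genes), 22 were at an unadjusted p under 0.05 against 8.88% of all genes, and DESeq2 called none. There 4 were above and 20 below without overlap, against 3.05% and 3.42%. Between null and heterozygous libraries no member passed in spermatocytes (0.00514% of all genes, with 3 members and 3.74% of all genes at an unadjusted p under 0.05, and none with DESeq2) or in round spermatids (0.00518% of all genes, with 28 members and 7.67% of all genes at that p, and 1 member with DESeq2). The comparisons with wild type share the wild-type libraries. The median of the 200 members was 0.17 between heterozygous and wild-type spermatocytes, beside -0.02 between null and wild-type spermatocytes, and -0.05 beside -0.02 in round spermatids.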

How the data were processed

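The authors deposited 1 table of raw counts per gene for 24 libraries. Per the study's methods, stranded paired-end libraries of poly(A) RNA were trimmed with Trim Galore, then aligned and counted with STAR (mm10 in the submitters' processing notes). Versions, strand column and annotation release are not given in the sources used here. All 55536 gene identifiers were found in GENCODE M21 (GRCm38), the source of biotypes, exons and 1-based coordinates.

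The sense partner was the overlapping gene of the opposite strand, protein-coding first, then by shared exonic bases. CPM use the library total, and per kilobase means per kilobase of exon union. Fitted log2 fold changes use TMM scaling, so they need not match the printed CPM. Genes with 10 or more counts in 3 or more libraries were tested with edgeR 4.0.16 (R 4.3.3, TMM), each fraction alone with its 3 genotypes, and both together for differences between fractions. Adjusted p-values without a tool are edgeR's, over all genes tested. DESeq2 1.42.0, its size factors, no filter, added outliers, left-out libraries and blocks were alternatives. A term for library numbers above 60 was chosen after seeing the data. Scripts were tested on simulated data.

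The members, gene lists and tests were chosen with earlier results of these data known. Named members were the 10 most abundant, those at the rank limit, the 8 largest differences between fractions in each direction, the 4 smallest unadjusted p per direction and genotype comparison without overlap, those facing the meiotic and spermatid gene list, the 5 highest ratios to the partner and those with a symbol ending in os, and only part of these is printed. Members sharing a start with a shown promoter were chosen after their values were seen. Libraries are pools of mice, and p-values measure the spread between these libraries. A count of 0 allows up to 3 counts, for counting error only.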

Additional observations from a re-analysis of the deposited data

Results flagged for a closer look

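Over 20 members whose libraries are printed or summarised above and the 3 groups of 4 libraries, 4 of 60 combinations of member and group had 1 library far from the other 3, and chance gives about 1 in 20. Gm16982 was at 20.1 CPM in wild-type spermatocyte replicate 5 against 9.75 to 11.2 in the other 3 libraries, the replicate without which 54 members were called between null and wild-type spermatocytes. Gm16982 was also at 25.6 CPM in null round spermatid replicate 1 against 21.5 to 22.1. A930024E05Rik was at 23.4 CPM in null round spermatid replicate 4 against 16.03 to 16.4. 4930515G01Rik was at 6.03 CPM in null round spermatid replicate 2 against 5.61 to 5.68.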

How the results depend on the processing

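The counts of members called moved with several choices. Null against wild-type spermatocytes gave 0 members, and 25 with DESeq2 (15.2% of all genes), 38 with no filter on low counts (7.61%), 18 with only the compared genotypes (6.93%) and 0 to 54 when 1 library was left out, the 54 without wild-type replicate 5 (23.6%). In round spermatids the 0 became 16 with DESeq2 (3.62%) and 3 with no filter (0.7%), and stayed at 0 to 0 with 1 library left out. Heterozygous against wild-type spermatocytes gave 0, and 11 with DESeq2 (6.16%), 31 with no filter (4.3%) and 0 to 51 with 1 library left out, again the 51 without wild-type replicate 5 (15.5%). Null against heterozygous round spermatids gave 0, and 1 with DESeq2 (0.104%). Between fractions, heterozygous libraries gave 29, and 0 with the outliers added back, 14 with only the compared genotypes (2.69%) and 16 to 37 with 1 library left out (4.72% and 11.1%). Null libraries gave 43, and 25 to 54 with 1 library left out (6.15% and 20.3%). Of these 43, 25 were called under each of 15 alternatives, while of the 29 in heterozygous libraries 0 were, and 9 with the outlier setting set aside. The cause of these changes was not tested. Beside these and the replicate block, the alternatives kept each count within 1.5 times, the term for library numbers above 60 among them, at 29 and 42 between fractions. DESeq2's size factors moved the median of the members by under 0.1 in each genotype comparison, and turned its sign in null spermatocytes, from -0.02 to 0.00.

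Same replicate numbers did not mark paired samples, since deviations from the group means correlated between -0.24 and 0.31 and over 0.1 in 8 of 26 pairs. With the replicate block the count was 13 for null against wild-type spermatocytes (3.53% of all genes). It was 29 and 44 between fractions in heterozygous and null libraries (8.61% and 18.6% of all genes), and 0 elsewhere. Consecutive library numbers as pairs gave 21 and 43 (5.48% and 15.1% of all genes), and 8 of 9 such pairs correlated over 0.1.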

Other observations

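A symbol ending in os or os1, which marks an opposite-strand gene, was held by 26 members, such as Itpr3os, Hoxd3os1 and Tmem132cos. Among them Prss23os, inside the serine protease gene Prss23, was higher in round spermatids by 1.17 in heterozygous and 1.42 in null libraries on the log2 scale, and Saxo1os, for which no overlapping gene on the opposite strand was found, by 1.06 and 1.5, all 4 values called with edgeR after Benjamini-Hochberg adjustment. Rbm46os was assigned to Lrat and not to Rbm46, since a partner had to overlap the member on the opposite strand. Tug1, a long noncoding RNA known from many tissues, overlapped exons of 4 genes on its own strand, and with such overlap its counts are uncertain.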
